A study of Rattus norvegicus with 90 samples.

Results

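The Reg genes encode small secreted lectins of the regenerating islet-derived family. The 5 genes described here are Reg1a, Reg3a, Reg3b, Reg3g and Reg4, which were the probes annotated with these symbols among 13337 named genes. Each gene was represented by 1 probe, so no choice between probes was needed. All samples were AR42J, a rat cell line from an acinar tumour of the pancreas that bears gastrin receptors. Gastrin is a peptide hormone made in the stomach. They were left without stimulus (called control in the labels) or received gastrin, cycloheximide (chx, an inhibitor of protein synthesis) or gastrin with chx, and total RNA was hybridised to Illumina bead arrays. Batches 2 and 3 held control and gastrin arrays from 0 to 14 h, batch 1 held 1 array of each at 14 h, batches 4 and 5 held all 4 stimuli at 1, 2, 4 and 6 h, and batch 6 held them at 4 h. Of the 90 arrays, 35 were control, 34 gastrin, 9 chx and 10 gastrin with chx. For 2 arrays of batch 3 at 12 h the title names another stimulus than the stimulus label does, and they entered no comparison. Whether the batches are separate cultures is not said in the labels, and the p-values therefore reflect a spread between samples that may be technical. No injury was applied to these cells. The line is a tumour line in culture, and the doses are not given in the sources used here.

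Reg1a encodes the pancreatic stone protein, also called lithostathine, an abundant product of acinar cells. Reg3b, Reg3a and Reg3g encode the rat pancreatitis-associated proteins, which are low in healthy acinar cells and strongly induced in acute pancreatitis. In AR42J cells the pancreatitis-associated protein is known to respond to interleukin-6 together with dexamethasone, acting through STAT3 and the glucocorticoid receptor. In mouse intestine Reg3g is known as an antibacterial lectin of the epithelium, and Reg4 is best known from intestinal cells and gastrointestinal tumours.

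Of these genes 4 lie close together on rat chromosome 4 in the RefSeq annotation of the GRCr8 build. They are Reg3b at chr4:112419776-112423014, Reg3a at chr4:112430397-112433163, Reg1a at chr4:112450466-112453130 and Reg3g, on the minus strand, at chr4:112482183-112484738. Reg4 lies apart, at chr2:188507684-188521990. The 250 bases before the start of the 4 clustered genes are shown, because the levels of 3 of them moved together below. Capitals mark matches to the STAT motif TTCNNNGAA and the C/EBP motif TTNNGCAA, searched on both strands from 250 bases before to 50 after the start. The sequences are those of RefSeq, 5′ to 3′ on the strand of the gene, and cover chr4:112450216-112450465 (plus strand), chr4:112430147-112430396 (plus), chr4:112419526-112419775 (plus) and chr4:112484739-112484988 (minus) in this order.
Reg1a: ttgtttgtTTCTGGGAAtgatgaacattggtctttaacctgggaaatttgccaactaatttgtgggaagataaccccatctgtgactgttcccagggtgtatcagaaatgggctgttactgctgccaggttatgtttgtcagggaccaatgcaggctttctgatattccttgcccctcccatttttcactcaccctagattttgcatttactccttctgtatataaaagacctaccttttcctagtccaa
Reg3a: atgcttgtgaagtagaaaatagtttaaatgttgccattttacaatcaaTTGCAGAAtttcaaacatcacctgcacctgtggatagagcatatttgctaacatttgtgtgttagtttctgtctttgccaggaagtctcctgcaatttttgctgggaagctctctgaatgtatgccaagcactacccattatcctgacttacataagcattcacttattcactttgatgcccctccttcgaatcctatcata
Reg3b: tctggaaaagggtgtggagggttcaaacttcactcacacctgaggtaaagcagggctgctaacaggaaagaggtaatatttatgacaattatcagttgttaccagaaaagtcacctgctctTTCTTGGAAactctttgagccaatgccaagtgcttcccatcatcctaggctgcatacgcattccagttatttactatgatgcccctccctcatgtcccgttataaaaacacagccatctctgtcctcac
Reg3g: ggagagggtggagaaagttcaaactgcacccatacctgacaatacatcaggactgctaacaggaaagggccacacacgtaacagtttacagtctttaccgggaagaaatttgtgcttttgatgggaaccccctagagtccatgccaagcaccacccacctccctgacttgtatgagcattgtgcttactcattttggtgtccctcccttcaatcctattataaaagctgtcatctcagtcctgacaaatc

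The motif TTCNNNGAA was found in Reg1a at positions -242 to -234 from the start and in Reg3b at -129 to -121. It was present in 8.68% of the 27457 promoters of the table. A wider STAT motif, TTC and GAA with 4 bases between them, occurs in 7.27% of all promoters and the AP-1 motif TGANTCA in 7.33%, and neither was found in any of the 5 genes. The C/EBP motif, present in 10.5% of promoters, was found in Reg3a alone, on the reverse strand at positions -202 to -195, where it overlaps an E-box, CANNTG. E-boxes, present in 71.6% of promoters, numbered 1 in Reg1a, 4 in Reg3a, 4 in Reg3b and 0 in Reg3g and Reg4. Such matches describe letters in this window and do not show that a factor binds. The table holds 2 starts for Reg3a, and the first was used. Without gaps, the stretches of Reg3b and Reg3g were 51.8% identical over 247 bases, and every other pair of the 5 genes was between 32.1% and 39.8% identical at its best shift.

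The deposited values ran from 5.51 to 14.84 on a log2 scale, over 22523 probes. Array medians lay between 6.403 and 6.406. Egr1, an immediate early gene that responds to gastrin receptor signalling, was 2.73 ± 0.23 (SE) higher with gastrin at 0.5 to 2 h. Most acinar genes were well above the array median. The carboxypeptidase gene Cpa1 lay between 13.99 and 14.84 and the acinar transcription factor gene Ptf1a between 12.37 and 14.47. Of the same list of 22 measured acinar genes, Cuzd1 and Klk1 were below the array median in 90 arrays. Cpb1 was below it in 89, Prss2 in 83 and Pla2g1b in 58. The islet hormone genes Ins1 and Sst were below the median in all 90 arrays, as were the leukocyte gene Ptprc and the fibroblast gene Col1a1. The endocrine genes Chgb, between 12.45 and 14.16, and Neurod1, between 7.59 and 9.97, were well above it. Of the ductal list Onecut1 (10.09 to 12.11) and Krt19 (7.20 to 10.88) were above it in all arrays. Spp1 of that list was below the median in 90 arrays, Muc1 in 55, Car2 in 15 and Krt7 in 6. Of the goblet or Paneth cell list Tff3 (9.66 to 11.81) and Agr2 (6.62 to 9.87) were above it in all arrays. Clca1 of that list was below the median in 88 arrays and Itln1 in 89. The 8 arrays of batch 4 at 2 and 6 h stood apart from the rest of their batch in Reg1a, Reg3a and Reg3b. Most results that rest on them are given with and without them. An expression score that separates the 2 h control arrays of batches 4 and 5 from the other controls of their batches, made from 100 probes each way, was above 0.5 in 17 arrays. Of these, 11 had gastrin alone. The fits without these arrays are given where they end a call.

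Reg1a was among the brightest probes on the arrays. Its level lay between 11.35 and 14.67 in all 90 arrays, with a median of 13.21. Reg3a and Reg3b were variable, from 6.16 to 11.95 with a median of 7.15 and from 6.59 to 13.79 with a median of 7.91. Reg3g and Reg4 were dim, with medians of 6.03 and 6.03. Reg4 was below the array median in 90 of 90 arrays and Reg3g in 86, against 12 for Reg3a and 0 for Reg1a and Reg3b. Probe sequences were not used here, so signal shared between the similar Reg3 transcripts was not tested. Detection calls were not analysed here either, so whether Reg3g and Reg4 were above background in any single array is unknown.

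**Figure D1:**
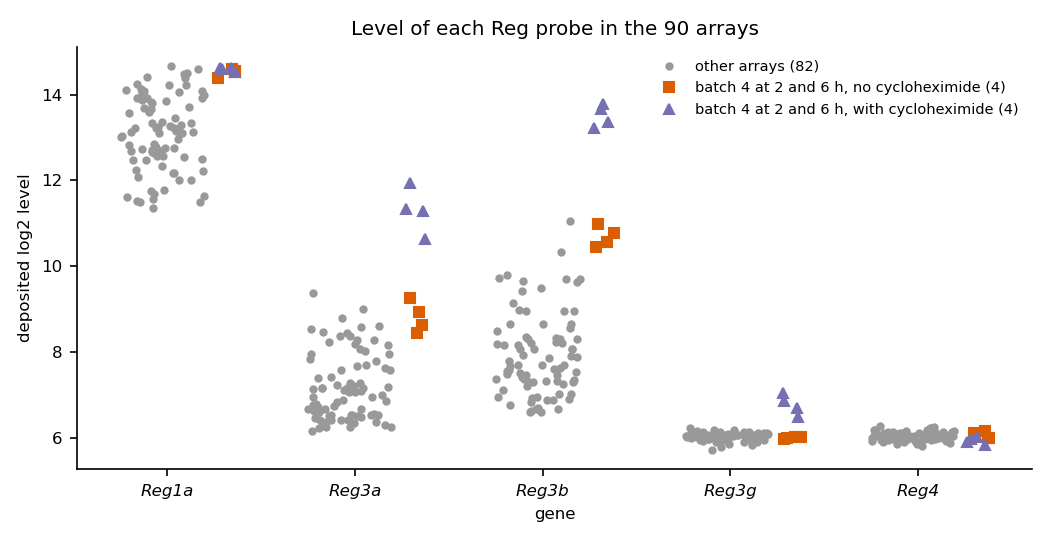
Deposited log2 level (vertical axis) of the probe of each Reg gene (horizontal axis), with 1 point per array. Squares and triangles, set to the right, are the 8 arrays of batch 4 at 2 and 6 h without and with cycloheximide. For Reg3g only the 4 triangles, between 6.47 and 7.04, lie above the other 86 arrays, which end at 6.21.

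In untreated cells of batches 2 and 3, Reg1a, Reg3a and Reg3b rose over the 14 h of the experiment. In the control arrays of batch 2, Reg1a was at 12.85, 13.03 and 12.78 at 0, 0.25 and 0.5 h, and at 13.93, 14.13 and 14.40 at 8, 10 and 14 h. In batch 3 it was at 13.14, 13.35 and 13.16 at the early times and at 13.93, 14.10 and 14.67 at the late ones. The early and late arrays did not overlap in either batch. The mean of 8, 10 and 14 h was above that of 0, 0.25 and 0.5 h by 1.14 ± 0.11 (SE, 2 batches with 3 arrays per window each, limma adjusted p = 4.23e-07), a 2.21-fold difference if the deposited scale is a plain log2. Of all probes, 11.7% passed the threshold of 0.05 in this comparison, and 5.53% passed and were higher, against 3 of the 5 Reg genes. Here and in the fits below over several times, the times of a window were pooled. Arrays of different times in a batch thus counted as repeats, and the SE and p-value do not measure the spread between batches alone.

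Reg3a was at 6.82, 6.98 and 6.75 early in batch 2 and at 7.63, 7.70 and 7.96 late. In batch 3 it was at 7.18, 7.24 and 7.14 early and at 7.58, 8.08 and 9.003 late. All 6 late arrays of these batches were above all 6 early ones, and the fitted rise was 0.97 ± 0.15 (SE; limma adjusted p = 9.74e-05). Reg3b was at 7.58, 7.62 and 7.45 early in batch 2 and at 8.30, 8.28 and 8.95 late, and in batch 3 at 8.06, 8.06 and 8.30 early and 8.35, 9.15 and 11.05 late. Within each batch the late arrays were above the early ones, but the late arrays of batch 2 overlapped the early ones of batch 3. The fitted rise of Reg3b was 1.17 ± 0.26 (SE; limma adjusted p = 0.00281). Batch 1 has a control array at 14 h but no early one, and was not in these fits. That array was at 13.13 in Reg1a, 6.60 in Reg3a and 7.68 in Reg3b. In Reg1a and Reg3b it lay within the range of the early controls of batches 2 and 3, and in Reg3a below it.

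The 14 h arrays carried a large share of the rise in the pancreatitis-associated genes. Without them, an alternative chosen after seeing the data, the rise was 0.67 ± 0.12 in Reg3b (limma adjusted p = 0.000375), 0.73 ± 0.11 in Reg3a and 0.97 ± 0.09 in Reg1a, and all 3 still passed. Between 0 and 14 h alone the differences were 2.18 ± 0.28 in Reg3b, 1.48 in Reg3a and 1.54 in Reg1a. Without batch 2, Reg3a (1.03, limma adjusted p = 0.0892) and Reg3b (1.38, limma adjusted p = 0.236) did not pass, while Reg1a did. The mean level of the 22 acinar genes also moved, from between 9.80 and 10.04 in the 6 early control arrays to between 10.02 and 10.29 in the 6 late ones, and its part in the rise was not tested. The mean of the islet list moved too, from 7.18 to 7.26 early to 7.27 to 7.39 late, and that of the 4 goblet or Paneth cell genes from 7.53 to 7.62 early to 7.34 to 7.51 late. Neither list overlapped between early and late arrays, and their part in the rise was not tested. The means of the fibroblast list (5.97 to 6.07 early, 5.99 to 6.07 late) and of the immune or endothelial list (6.10 to 6.22 early, 6.12 to 6.20 late) stayed near the lower end of the scale. In a culture, more cells with a transcript and more transcript per cell cannot be told apart.

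**Figure D2:**
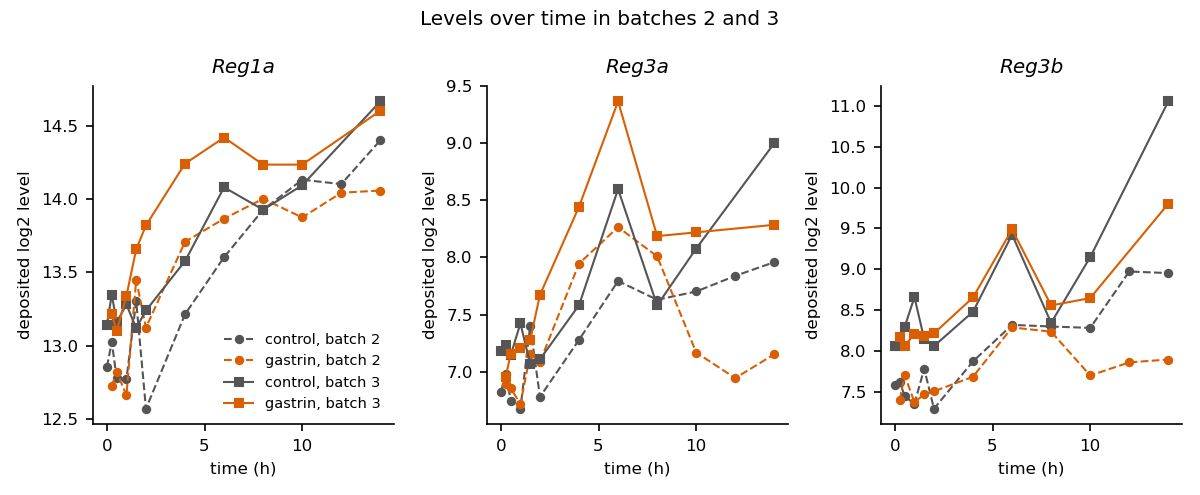
Deposited log2 level (vertical axes) against time in hours in batches 2 (circles, dashed) and 3 (squares, solid), with 1 point per array, for control and gastrin. Reg1a, Reg3a and Reg3b are higher late than early in the controls, and in Reg3b the gastrin arrays lie below the controls at 10 and 14 h.

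Cells with gastrin also rose over time, to a different extent for each gene. In the gastrin arrays, Reg1a at 8 to 14 h was 1.20 ± 0.08 (SE; limma adjusted p = 1.18e-09) above 0.25 and 0.5 h, Reg3a 0.88 ± 0.14 (limma adjusted p = 0.000191) and Reg3b 0.64 ± 0.17 (limma adjusted p = 0.0120), where 14.9% of probes passed and 6.91% passed and were higher, against 3 of the 5 Reg genes. Reg3a with gastrin peaked at 6 h, at 8.27 in batch 2 and 9.37 in batch 3, and was at 7.15 and 8.29 at 14 h. Reg3b with gastrin was at 7.90 and 9.80 at 14 h, against 8.95 and 11.05 in the controls. The rise of Reg3b with gastrin did not pass without batch 2 (0.89) or without batch 3 (0.39), and that of Reg3a did not pass without batch 3 (0.57).

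Gastrin arrays were next compared with the control from the same batch and time point, to separate the hormone from the drift of the cultures. These comparisons share the controls with the untreated time course: a high control at 14 h both raises the untreated change and lowers the gastrin difference. At 0.25 h no Reg gene passed and 0% of all probes did. In the 12 pairs at 0.5 to 2 h, where 8.91% of probes passed, none of the 5 Reg genes did, and the largest difference was that of Reg1a, 0.19 ± 0.07 (SE; limma adjusted p = 0.0746; higher in 9 of 12 pairs). Reg1a passed in 5 of 20 alternatives, with the lowest limma adjusted p = 0.0247 without batch 5, and was 0.14 without the arrays of high score (limma adjusted p = 0.997).

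At 4 to 8 h, Reg3a and Reg1a were higher with gastrin. Reg3a in batch 2 was at 7.95, 8.27 and 8.01 with gastrin at 4, 6 and 8 h and at 7.28, 7.79 and 7.63 in the controls. In batch 3 it was at 8.44, 9.37 and 8.19 with gastrin and at 7.58, 8.60 and 7.58 without. Gastrin was above control at each of these times in both batches, while levels of different times overlapped between the groups. Over all 11 pairs the Reg3a difference was 0.56 ± 0.09 (SE; limma adjusted p = 3.46e-05), it ranged from -0.06 to 1.41, and it was positive in 10 of 11. In this window 11.9% of probes passed and 5.62% passed and were higher, against 2 of the 5 Reg genes.

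Reg1a was 0.29 ± 0.07 higher with gastrin at 4 to 8 h (SE; limma adjusted p = 0.00296), again in 10 of 11 pairs, from -0.04 to 0.67. Without batch 3 it did not pass (0.24, limma adjusted p = 0.0813). Without batch 4 at 2 and 6 h both genes passed, at 0.32 in Reg1a and 0.54 in Reg3a. Reg3b was not called (0.31 ± 0.12, limma adjusted p = 0.109), although 8 of 11 pairs were positive. Its difference lay between -0.19 and 0.43 in 10 pairs, and was 2.15 in batch 6, where the control was at 7.53 and the gastrin repeats at 9.64 and 9.71. Without batch 6 the Reg3b difference was 0.13 ± 0.08, and in batches 2 and 3 alone it was 0.03.

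At 10 and 14 h the direction was the opposite for Reg3b. It was at 7.70 and 7.90 with gastrin in batch 2 and at 8.28 and 8.95 in the controls, at 8.65 and 9.80 against 9.15 and 11.05 in batch 3, and at 7.29 against 7.68 in batch 1 at 14 h. All 5 gastrin arrays were below their own controls. The fitted difference was -0.76 ± 0.18 (SE; limma adjusted p = 0.0109; range of pairs -1.25 to -0.38), a level 1.69-fold lower, in a window where 5.95% of probes passed and 2.87% passed and were lower. Reg3b was the only Reg gene that passed, 1 of 5. Reg3a was lower in 4 of 5 pairs (-0.42 ± 0.14, limma adjusted p = 0.0633; range -0.81 to 0.14), and Reg1a was at -0.09 ± 0.10.

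The late decrease of Reg3b kept its sign in every alternative but did not pass without batch 2 (-0.71), without batch 3 (-0.67), without the arrays of high score (-0.65, limma adjusted p = 0.159) or without 14 h (-0.54, limma adjusted p = 0.415). The gastrin arrays of the late pairs had scores of 0.97 and 0.43 in batch 2, 0.08 and 0.58 in batch 3 and 0.22 in batch 1, against -0.02 to 0.10 in their controls. The control and gastrin arrays of batch 2 at 12 h, which lay in no window, differed in the same direction, by -1.11 in Reg3b and -0.90 in Reg3a. The mean level of the acinar genes was between 10.37 and 10.52 in the 5 gastrin arrays at 10 and 14 h, batch 1 included. It was between 10.02 and 10.29 in the controls of batches 2 and 3 at 8, 10 and 14 h, which are not the paired controls of those arrays. In the 10 and 14 h window 5.95% of all probes passed, and 2.87% passed and were lower. Of the 22 acinar genes 5 were called higher with gastrin and 1 lower, and of 6 ductal genes 0 and 3. Of 4 goblet or Paneth cell genes it was 0 and 1, and of 12 islet genes 1 and 0. In the fibroblast and the immune or endothelial lists 0 passed. The part of these values in the Reg3b difference was not tested.

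**Figure D3:**
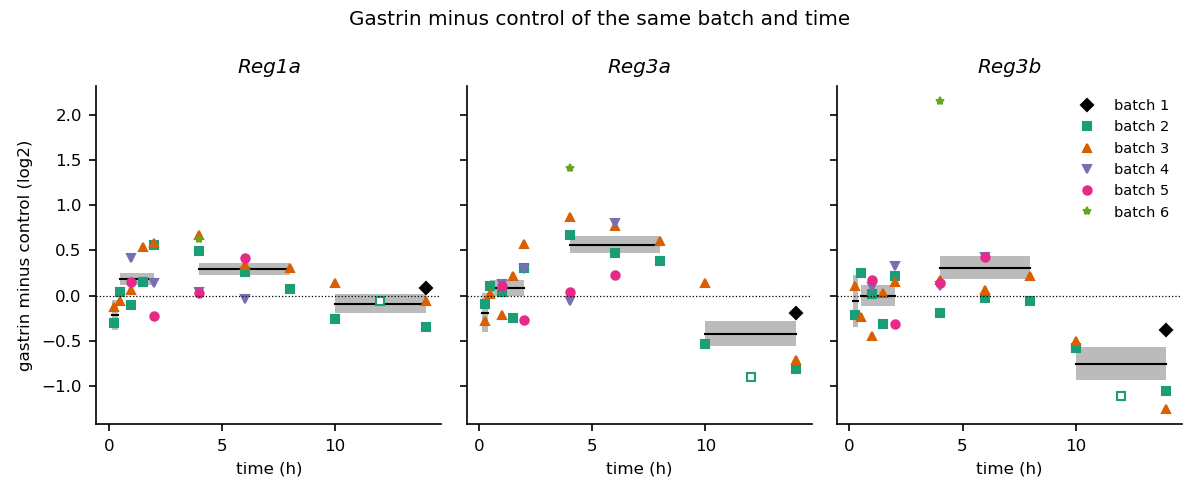
Gastrin minus control of the same batch and time (log2, vertical axis) against time in hours, with 1 point per pair and a marker for each batch. Black lines with grey bands are the fitted mean of each window ± SE, and the open square is the 12 h pair of batch 2, which is in no window. Reg3a points are mostly above 0 at 4 to 8 h, and the 5 late Reg3b points are all below 0.

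The change between the windows was tested directly, in a contrast added after seeing the data. The gastrin difference at 10 and 14 h minus that at 4 to 8 h was -0.98 ± 0.17 in Reg3a (SE; limma adjusted p = 0.000803) and -1.07 ± 0.22 in Reg3b (limma adjusted p = 0.00630). In Reg1a it was -0.38 ± 0.12 and did not pass (limma adjusted p = 0.116). Of all probes, 1.74% passed here and 0.613% passed and were lower, against 2 of the 5 Reg genes. Without 14 h neither passed (Reg3a -0.76, Reg3b -0.85), and without batch 2 neither did (-0.84 and -1.17). Reg3b also did not pass without batch 3 (-1.04). The late window held pairs of batches 1 to 3 and the earlier one pairs of batches 2 to 6.

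The rise in untreated cells and the rise with gastrin were compared in batches 2 and 3. No Reg gene passed the test of that difference, in which 4.44% of probes passed. The contrast, gastrin minus untreated, was -0.52 ± 0.18 in Reg3b (SE; limma adjusted p = 0.106, 95% interval -0.88 to -0.15). It was 0.09 ± 0.10 in Reg1a and -0.09 ± 0.19 in Reg3a, with intervals of -0.12 to 0.30 and -0.47 to 0.29. The small Reg3a contrast averages gastrin differences of opposite sign within the late window. With batch 2 given before batch 3, the 8 h pairs were positive (0.38, 0.61). Those of 10 h were mixed (-0.54, 0.14), whereas both 14 h pairs were negative (-0.81, -0.72). The Reg3a contrast thus does not show that gastrin left its level unchanged at single times. The interval of Reg1a ends well below its untreated rise of 1.14, which also counts the 0 h arrays that this contrast leaves out. The late controls of these batches had Reg1a between 13.93 and 14.67, near the highest deposited value of 14.84. Whether this limits a late difference was not tested. For Reg3b the contrast moved to -0.15 with the array score as a covariate and to -0.21 without 14 h. The score itself differed with the stimulus. At 10 and 14 h it was 0.08 to 0.97 with gastrin against -0.02 to 0.10 in the controls. At 8 h it was lower with gastrin (-0.12 and -0.20 against -0.08 and -0.05). Adjusting for the score can therefore also remove part of the gastrin difference.

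The untreated change was also read at the times that batches 4 and 5 share with batches 2 and 3, as 4 and 6 h minus 1 and 2 h. No Reg gene passed over the 4 batches (Reg1a 0.38 ± 0.32, Reg3a 0.40 ± 0.33, Reg3b 0.41 ± 0.49), and 0.0178% of all probes did. Without batch 4 at 2 and 6 h they did not pass either (0.40, 0.48 and 0.44). In batches 2 and 3 alone Reg1a (0.65), Reg3a (0.82) and Reg3b (0.68) were higher at 4 and 6 h, with limma adjusted p = 0.00496, 0.0157 and 0.0386. In batch 5 alone, control Reg3b was at 6.67 and 6.59 in the arrays at 1 h, and at 6.92, 6.70 and 6.88 at 2, 4 and 6 h.

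Batch 4 differed from batch 5 under all 4 stimuli, with high levels at 2 and 6 h and low ones at 1 and 4 h. Its control arrays had Reg3b at 6.88 and 6.63 at 1 h, 10.44 at 2 h, 7.10 at 4 h and 10.57 at 6 h. All 8 arrays at 2 and 6 h, of all 4 stimuli, had Reg3b between 10.44 and 13.79, Reg3a between 8.45 and 11.95 and Reg1a between 14.38 and 14.64. Among them the 4 with chx were the highest in Reg3b (13.21 to 13.79, against at most 10.99 without chx). The same held for Reg3a (10.64 to 11.95, against at most 9.25), while in Reg1a the arrays with and without chx overlapped. The 10 arrays of batch 4 at 1 and 4 h had Reg3b between 6.63 and 8.96, Reg3a between 6.16 and 6.76 and Reg1a between 11.61 and 12.96. These groups did not overlap in any of the 3 genes, but how many of all probes separate them likewise was not counted. Within the title series that carries numbers, the batch 4 control was 3.69 higher in Reg3b at 6 h than at 1 h. In batch 5 this difference was 0.21.

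Some stress and signalling genes, chosen by hand, were also higher in these arrays. The share of all probes that moved likewise was not counted. In the controls of batch 4, Egr1 was at 7.60, 12.92, 7.70 and 11.31 at 1, 2, 4 and 6 h, and the haem oxygenase gene Hmox1 was at 7.19, 10.71, 6.81 and 8.50. Stat3, the transcription factor known to act on Reg3b, was at 9.17, 10.95, 8.44 and 10.31. In batch 5 the Stat3 controls were at 8.90, 9.39, 8.37 and 9.18 at these times. Their mean of 2 and 6 h was thus also above that of 1 and 4 h, by 0.65 against 1.83 in batch 4. The mean of the acinar genes was between 9.94 and 10.18 in the 8 arrays and between 9.70 and 10.13 in the other 10, the islet list between 7.48 and 7.63 against 7.35 and 7.55, and the immune or endothelial list between 6.10 and 6.21 against 6.11 and 6.25. What made these arrays differ was not tested.

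**Figure D4:**
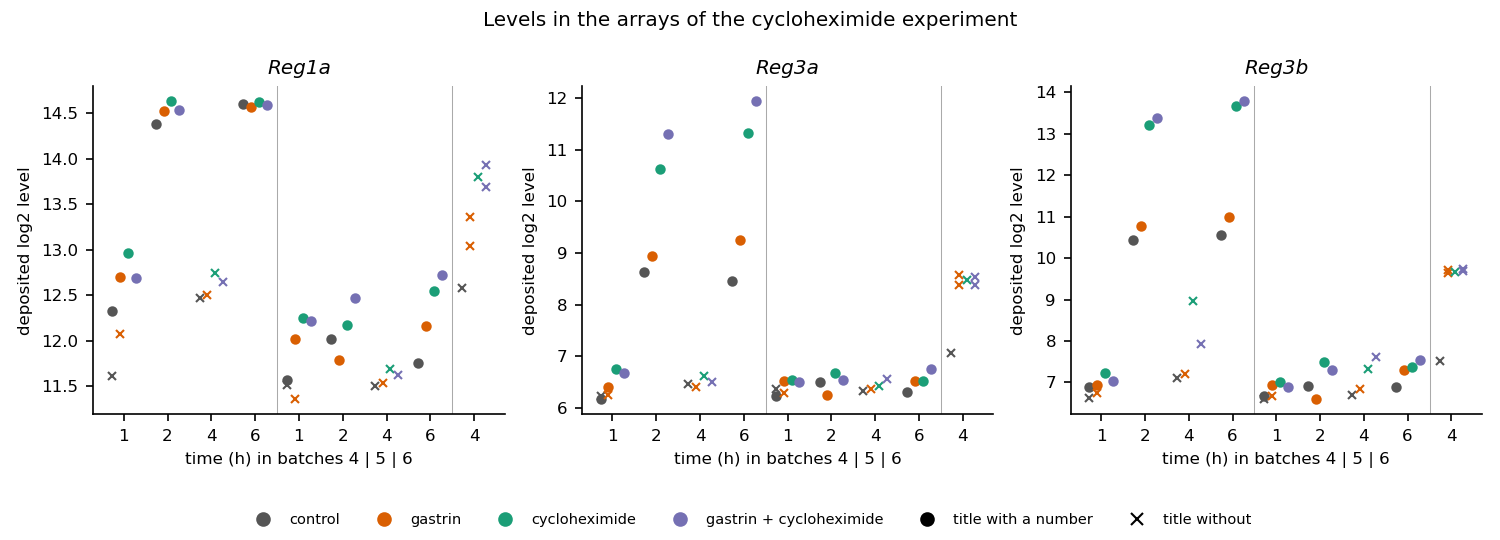
Deposited log2 level (vertical axes) in batches 4, 5 and 6 by time in hours and stimulus (colours), with 1 point per array. Filled circles have a title with a number and crosses a title without. The arrays of batch 4 at 2 and 6 h lie above the rest of batch 4, and cycloheximide arrays lie above the control in Reg3b at every time.

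Reg3b and Reg1a were higher with cycloheximide than without at 4 and 6 h. These differences share the controls with the gastrin comparisons. In batch 4 Reg3b was at 8.96 with chx and 7.10 without at 4 h, and at 13.66 with and 10.57 without at 6 h. In batch 5 it was at 7.31 against 6.70 at 4 h and at 7.36 against 6.88 at 6 h, and in batch 6 at 9.66 against 7.53. Each chx array was above its control, in 5 of 5 pairs, while levels overlapped between batches. The mean difference was 1.64 ± 0.40 (SE; limma adjusted p = 0.00241; pairs from 0.48 to 3.10), in a comparison where 23.3% of probes passed and 11.3% passed and were higher, against 2 of the 5 Reg genes. Without batch 4 at 2 and 6 h it was 1.27 ± 0.26 (limma adjusted p = 0.000718).

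Reg1a was 0.50 ± 0.13 higher with chx at 4 and 6 h (SE; limma adjusted p = 0.00452), in 5 of 5 pairs, from 0.02 in batch 4 at 6 h, where all arrays lay near the top of the scale, to 1.22 in batch 6. It did not pass without batch 5 (0.51, limma adjusted p = 0.0866) or without batch 6 (0.32, limma adjusted p = 0.0595), and was 0.62 without batch 4 at 2 and 6 h. Reg3a was higher in 5 of 5 pairs, but the pairs ran from 0.08 to 2.89 and the mean did not pass (0.95 ± 0.37, limma adjusted p = 0.0671). Without batch 4 at 2 and 6 h its difference was 0.47 ± 0.17 and passed (limma adjusted p = 0.0485). Of the 22 acinar genes, 5 were called higher and 4 lower with chx in this window. Of all probes 23.3% passed there, and 11.3% passed and were higher.

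At 1 and 2 h no Reg gene passed for chx, where 11.5% of probes did. Reg1a was at 0.43 ± 0.14 (SE; limma adjusted p = 0.0520) and Reg3b at 1.01 ± 0.44 (limma adjusted p = 0.152), both higher in 4 of 4 pairs. Reg1a passed in 4 of 12 alternatives, with the lowest limma adjusted p = 0.0176 without batch 6, at the same difference, and did not pass without batch 4 at 2 and 6 h (0.49, limma adjusted p = 0.0742). The Reg3b pairs ranged from 0.34 to 2.78, and without batch 4 at 2 and 6 h the difference was 0.43 (limma adjusted p = 0.464). The difference between the chx effects of the later and the earlier window was 0.63 ± 0.59 in Reg3b and 0.07 ± 0.19 in Reg1a, neither of which passed, while 8.96% of probes did. These were 0.85 and 0.13 without batch 4 at 2 and 6 h, and did not pass.

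No change with gastrin was detectable where chx was present. At 1 and 2 h gastrin with chx minus chx was -0.09 ± 0.44 in Reg3b, and none of the 5 Reg genes passed, against 0.0577% of probes. The Reg3b value was -0.17 without batch 4 at 2 and 6 h. At 4 and 6 h, gastrin with chx minus chx was -0.08 ± 0.40 in Reg3b (95% interval -0.89 to 0.74), 0.17 ± 0.37 in Reg3a and -0.00 ± 0.13 in Reg1a (interval -0.27 to 0.27). None of the 5 Reg genes passed, against 2.70% of probes. Gastrin minus control in the same batches and times was 0.65 ± 0.40 in Reg3b, 0.48 ± 0.37 in Reg3a and 0.21 ± 0.13 in Reg1a, and none passed, against 2.64% of probes. The test of the difference between these gastrin effects passed for 0.200% of probes and for no Reg gene, with a contrast of -0.72 ± 0.56 in Reg3b and an interval of -1.87 to 0.43. Without batch 4 at 2 and 6 h, Reg3b was at -0.13 for gastrin with chx minus chx, at 0.70 for gastrin minus control and at -0.83 for their difference, and Reg3a was at 0.05, 0.40 and -0.35. Reg1a was at 0.01, 0.27 and -0.27, and no Reg gene passed. In batch 6 at 4 h, gastrin (9.64 and 9.71), chx (9.66) and gastrin with chx (9.73 and 9.69) gave nearly the same Reg3b level, all above the control at 7.53.

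Reg3g and Reg4 were called in none of the 16 comparisons. In the untreated time course Reg3g changed by 0.06 ± 0.05 and Reg4 by 0.04 ± 0.05, with 95% intervals of -0.05 to 0.16 and -0.07 to 0.14. As both probes lay near the lower end of the scale, these intervals set no limit on a change in the transcripts. Reg3g exceeded 6.21 only in the 4 arrays of batch 4 at 2 and 6 h that held chx. It was at 6.47 and 6.69 with chx at 2 and 6 h and at 6.86 and 7.04 with gastrin and chx. In the same batch and times the 4 arrays without chx were not above the other arrays. Reg4 stayed between 5.84 and 6.15 in these 8 arrays and between 5.81 and 6.28 in the other 82.

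The order of conditions differed between the genes, and was set in part by which batches a condition held. The highest mean of Reg3b over batches was with gastrin and chx at 6 h (10.67 ± 4.41, SD, n = 2), followed by chx at 6 h (10.51 ± 4.46) and chx at 2 h (10.35 ± 4.04). Neighbours in this order did not differ beyond their spread, which was almost all between batches 4 and 5. Among control and gastrin alone, the highest mean was that of control at 14 h (9.23 ± 1.71, n = 3) and the lowest that of gastrin at 1 h (7.31 ± 0.66, n = 4). For Reg3a the means ran from 9.35 ± 3.68 with gastrin and chx at 6 h to 6.58 ± 0.13 with gastrin and chx at 1 h. For Reg1a the highest was gastrin at 8 h (14.12 ± 0.16, n = 2), next to control at 10 h (14.11 ± 0.03, n = 2).

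Over the 44 control and gastrin arrays of batches 2 and 3, with each batch's mean removed, Reg1a correlated with Reg3a at r = 0.83 and with Reg3b at 0.77, and Reg3a with Reg3b at 0.81. These arrays share batches and times, so the points are not independent. Reg3g correlated with Reg3b at 0.30 and Reg4 with Reg3b at -0.15. The genes whose pattern was most like that of Reg1a were Cpeb1 (r = 0.87), which encodes a regulator of mRNA polyadenylation, Neurod1 (0.87), an endocrine transcription factor gene, Serpinb13 (0.85), Ppm1n (0.85) and Nupr1 (0.85), a stress gene first described in pancreatitis. Nupr1 rose by 0.96 ± 0.11 in untreated cells (limma adjusted p = 4.32e-06). Those most like Reg3a were Pde1c (0.88), a phosphodiesterase gene, Adgrl2 (0.84), Ypel4 (0.83), Surf1 (0.82) and Ccnt2 (0.81). Ppm1n (0.82), Polh (0.74), Ypel4 (0.74), Notum (0.74) and Pde1c (0.73) were nearest to Reg3b. No gene reached more than 0.56 with Reg3g (Tmem218, Dnajc28, Map4k2, Cd28 and Il2ra, from 0.56 to 0.52) or 0.54 with Reg4 (P2ry2, Cd1d1, Rilp, Or4k51 and Dbx2, from 0.54 to 0.51).

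Genes known to act upstream of the pancreatitis-associated proteins were read in the same fits. Of 28 measured genes of the interleukin-6 family, JAK kinases and STAT3, 4 rose and 2 fell in untreated cells, with a median of 0.01 beside -0.00 over all probes, of which 11.7% passed. Socs2 (0.35 ± 0.07) and Socs3 (0.33 ± 0.06), feedback inhibitors of cytokine receptors, and the phosphatase gene Ptpn2 (0.23 ± 0.06) rose, and Stat5b fell by 0.24. At 0.5 to 2 h of gastrin 4 rose and 2 fell, where 8.91% of probes passed, led by Ptpn2 (0.34 ± 0.06). At 4 to 8 h, where 11.9% passed, 1 rose, Stat3 (0.29 ± 0.09, limma adjusted p = 0.0228), and 1 fell, the kinase gene Jak2 (-0.19 ± 0.03). At 10 and 14 h, where 5.95% passed, 0 rose and 1 fell, the receptor gene Il11ra1 (-0.19 ± 0.05). With chx at 4 and 6 h 6 rose and 2 fell of the 28, near the 23.3% of all probes that passed, led by Stat3 (0.78 ± 0.13) and Ptpn2 (0.64 ± 0.06), while Cntf changed by -0.49 and the receptor gene Il22ra1 by 0.42.

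Of 13 glucocorticoid receptor and target genes, all measured, 3 rose and 2 fell in untreated cells, against 11.7% of all probes called, with a median of 0.04. The clock gene Per1 (0.45 ± 0.08) and Tsc22d3 (0.38 ± 0.07), a known glucocorticoid target, rose, while the kinase gene Sgk1 (-0.42 ± 0.13) and the chaperone gene Fkbp5 (-0.30 ± 0.07) fell. With gastrin at 0.5 to 2 h 6 rose and 0 fell, against 8.91% of probes, led by Per1 (1.53 ± 0.16) and Ddit4 (1.09 ± 0.08), with a median of 0.10. At 4 to 8 h 5 rose and 1 fell, against 11.9%, led by Per1 (0.88 ± 0.17), Sgk1 (0.81 ± 0.11) and Ddit4 (0.51 ± 0.08), and at 10 and 14 h 0 passed, against 5.95%. With chx at 4 and 6 h 6 rose and 0 fell, against 23.3% of probes, led by the phosphatase gene Dusp1 (2.98 ± 0.25), Sgk1 (1.96 ± 0.30) and Per1 (1.15 ± 0.24), with a median of 0.19 beside -0.01 over all probes.

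Of 27 measured acute phase and pancreatitis genes, 3 rose and 5 fell in untreated cells, against 11.7% of all probes called, with a median of -0.01. Clu, which encodes the secreted chaperone clusterin, rose by 1.29 ± 0.15, Nupr1 by 0.96 and Tff2, a trefoil peptide gene, by 0.45, while the acute phase gene Crp fell by 0.76. With gastrin 2 rose and 7 fell at 0.5 to 2 h, against 8.91% of probes, and 3 rose and 4 fell at 4 to 8 h, against 11.9%. Clu was higher with gastrin by 1.67 ± 0.11 at 4 to 8 h and by 2.00 ± 0.17 at 10 and 14 h (limma adjusted p = 4.68e-10), and Crp was lower by 0.48 and then by 0.99, changes of -0.48 ± 0.12 and -0.99 ± 0.18. In that last window 1 gene of the list rose and 2 fell, against 5.95% of probes, with Serpina1 at -0.32, and Reg3b, which is no member of the list, fell as well. With chx at 4 and 6 h, against 23.3% of probes, 1 rose, the haptoglobin gene Hp (0.36 ± 0.06), and 4 fell, led by Serpina1 (-0.50).

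Extl3, which encodes a glycosyltransferase-like protein known as a candidate receptor for Reg proteins, did not pass in any of the 16 comparisons, and its change in untreated cells was -0.01 ± 0.05. Of the 8 measured genes of this list, 0 rose and 1 fell in untreated cells (Extl2, -0.25 ± 0.04), near the 11.7% of all probes called there. With gastrin 0 passed at 0.5 to 2 h, 1 rose at 4 to 8 h (Extl1, 0.38 ± 0.06), near the 11.9% of all probes, and 0 passed at 10 and 14 h. With chx at 4 and 6 h 0 rose and 1 fell, against 23.3% of probes, with Extl2 at -1.21 ± 0.15.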

How the data were processed

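The authors deposited 1 value per probe and array on a log2 scale, and the submitters' processing notes name lumi 2.4.0. Whether a variance-stabilising transform, which compresses differences at low levels, was applied is stated in no label. Fold values hold only for an untransformed log2. Signal over background of single probes is unknown, and the number of arrays limits the precision. Gene symbols came from the platform annotation (13793 probes with 1 symbol, 0 with several; 13752 matched the GRCr8 gene table by Entrez identifier), and 0 deposited columns were left unused.

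Comparisons were fitted on all 22523 probes with limma 3.58.1 in R 4.3.3 (lmFit and eBayes), with Benjamini-Hochberg adjustment and a threshold of 0.05. The block was batch and time together for gastrin and chx, and batch for changes over time, since the labels name the batch. As a check of this pairing by batch, control and gastrin arrays of 1 batch deviated together from their group means, with correlations from 0.886 to 0.912. Technical repeats of batch 6 were averaged, as were the 1 h arrays of batches 4 and 5, for which the chx fits used the title series that holds all 4 stimuli. The procedure was tested on simulated data. Correlations of levels are descriptions. The genes, gene lists and tests were chosen with earlier results of these data known. Named genes were the 5 Reg genes, the 5 genes nearest in pattern to each, and up to 4 called genes per list with the largest change. Chosen by hand were the cell type markers named singly, Extl3, and Egr1, Hmox1 and Stat3 in batch 4. Alternatives varied the block, left out batches, arrays of high score, batch 4 at 2 and 6 h or 14 h, and changed the limma options, the filter, the centring, the array weights and the weighting of times. The alternatives without batch 4 at 2 and 6 h, without 14 h and with times weighted equally, and the comparison of the gastrin windows, were chosen after seeing the data.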

Additional observations from a re-analysis of the deposited data

Results flagged for a closer look

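Reg4 in the gastrin array of batch 3 at 2 h was at 6.24, while the other 3 batches lay between 5.94 and 5.98, so this array was far from the others for its group of 4. Of 40 such groups tested, chance picks out about 1 in 20, and the probe was dim throughout. The gastrin difference at 10 and 14 h minus that at 4 to 8 h was -0.98 in Reg3a and -1.07 in Reg3b, in a contrast added after seeing the data. Both used limma across all probes, and both were lost without batch 2 and without 14 h.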

How the results depend on the processing

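Of 1148 alternative values over 80 results, 1087 kept their direction and side of the threshold, 35 lost the call and 23 gained one. A change of sign was counted only for a called value or for one at least 1 SE from 0, and 61 smaller ones were not counted, among them Reg3a in the test of the difference in rise (0.42 with the array score). The cause was not tested for any of them. The replicate block was part of the design. Without it, and with an additive block, the values were the same but the spread was larger, and calls were lost at 4 to 8 h of gastrin (Reg1a 0.29, Reg3a 0.56), at 10 and 14 h (Reg3b -0.76), between the windows (Reg3a -0.98, Reg3b -1.07) and with chx at 4 and 6 h (Reg1a 0.50, Reg3b 1.64). Without the block alone the rise of Reg3b with gastrin (0.64) was lost, and the untreated rises of Reg1a, Reg3a and Reg3b still passed.

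Leaving out 1 batch gave 0.24 to 0.36 for Reg1a and 0.48 to 0.66 for Reg3a at 4 to 8 h of gastrin, and -0.85 to -0.67 for Reg3b at 10 and 14 h. Between the windows it gave -1.08 to -0.84 for Reg3a, -1.17 to -0.88 for Reg3b and -0.44 to -0.24 for Reg1a. The untreated rise ranged from 0.91 to 1.03 in Reg3a, from 0.96 to 1.38 in Reg3b and from 1.01 to 1.27 in Reg1a, and the rise with gastrin from 0.57 to 1.18 in Reg3a and from 0.39 to 0.89 in Reg3b. With chx at 4 and 6 h it was 0.32 to 0.73 in Reg1a and 1.08 to 2.36 in Reg3b.

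Without arrays of high score Reg3b lost its call at 10 and 14 h (-0.65) and between the windows (-0.96), and without 14 h it was lost in both (-0.54 and -0.85), as was Reg3a between the windows (-0.76). The rise of Reg3b with gastrin was lost with the score as a covariate (0.59) and with trend and robust options (0.64). Reg1a gained a call between the windows in batches 2 and 3 alone (-0.49), with the score (-0.42) and with array weights (-0.38). Reg1a gained a call in 5 alternatives at 0.5 to 2 h of gastrin and in 4 with chx at 1 and 2 h. Reg3a at 10 and 14 h, -0.42 in the report, passed in 6 alternatives, with -0.48 and a limma adjusted p = 0.00651 in batches 2 and 3 alone. The sign turned for Reg3g at 0.5 to 2 h of gastrin (-0.019) and Reg4 with chx at 1 and 2 h (0.057) without arrays of high score, and for Reg3a in the untreated change at 4 and 6 h (-0.024) in batches 4 and 5 alone. The mean of several probes was not run because each gene has 1 probe, and Reg3g and Reg4 did not pass the filter on dim probes.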

Other observations

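The 2 arrays of batch 3 at 12 h whose stimulus is contradictory had Reg3b at 10.34 and 8.96, Reg3a at 8.79 and 8.16, and Reg1a at 14.52 and 14.49. In batch 2 at 12 h the control and the gastrin array had Reg3b at 8.97 and 7.86, Reg3a at 7.84 and 6.94, and Reg1a at 14.10 and 14.04.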
